A study of Rattus norvegicus with 10 samples.

Results

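The 587 sites described here were bound by SOX9 without SOX6 and carried H3K4me1 as the sole active histone mark. They were chosen by the deposited peak lists of a chromatin immunoprecipitation and sequencing (ChIP-seq) study of RCS cells. Each is a SOX9 peak that overlaps an H3K4me1 peak by 1 bp or more and overlaps no SOX6, H3K27ac or H3K4me3 peak. They make up 3.97% of the 14782 SOX9 peaks (95% Wilson interval 3.67% to 4.30%), and because the lists chose them, their SOX9 and H3K4me1 values below are a description and were not tested.

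RCS is a cell line grown from a rat chondrosarcoma, a tumour of cartilage, and the labels name no genotype, treatment or time. Of its 10 libraries, 6 are immunoprecipitations with antibodies to SOX9 (AB5535), SOX6 (ab30455), H3K27ac (ab4729), H3K4me1 (ab8895), H3K4me3 (ab8580) and H3K9me3 (ab8889), and 4 are inputs made without an antibody. All come from the same cells, so every comparison is between places in the genome of a single tumour line. With 1 library per antibody no value has a replicate error. Intervals below cover counting error alone or, where stated, the spread over sites or chromosomes, and neighbouring sites are not independent.

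SOX9 is the transcription factor that commits cells to cartilage. It binds DNA through a high-mobility-group domain, often as a dimer on paired sites, and activates genes of the cartilage matrix. SOX6 shares the type of DNA-binding domain but has no transactivation domain of its own, and it acts beside SOX9 in chondrocytes. H3K4me1 is laid down widely at enhancers, also at ones that are not in use, H3K27ac is added where enhancers and promoters are active, H3K4me3 marks promoters, and H3K9me3 marks silenced chromatin. An enhancer with H3K4me1 and without H3K27ac is usually called primed. H3K27me3, the mark used to tell poised from primed enhancers, was not analysed here.

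The lists left few such sites. H3K4me1 overlapped 11064 SOX9 peaks, and 3670 of these did not overlap SOX6. Leaving out peaks with H3K27ac took this number to 626, and leaving out those with H3K4me3 took it to 587. Among SOX9 peaks with H3K4me1, H3K27ac by itself kept out 1773, SOX6 by itself kept out 401 and H3K4me3 by itself kept out 39. The mirror set, SOX6 peaks with H3K4me1 and none of SOX9, H3K27ac or H3K4me3, held 1646 sites.

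The number depends on how weak a peak may be. It was 105 when only SOX9 peaks above the median score of their list were used, and 326 when only H3K4me1 peaks above theirs were. It was 1608 when only SOX6, H3K27ac and H3K4me3 peaks above the median score of their lists kept a site out. A site counted here as free of SOX6 or H3K27ac is one without a deposited peak, and signal below the lowest score of a list is not seen.

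Sites at the border of the rule differed from those beyond it by a few bp. The smallest overlap with H3K4me1 was 21 bp, at the site on chromosome 7 from 10000970 to 10001312 (rn5, as are all positions here). An overlap of 26 bp followed on chromosome 12 (39020759 to 39021004). The next, of 36 bp, lay on chromosome 10 (88511844 to 88512322). On the other side, SOX9 peaks were kept out by as little as 7 bp of H3K27ac on chromosome 11 (71271077 to 71271460), 9 bp on chromosome 5 (34393503 to 34394033) and 23 bp on chromosome 6 (134921137 to 134921509). Such cases were rare. Of the members, 2 had less than 10% of the SOX9 peak under H3K4me1, and 8 of the 1773 acetylated peaks had H3K27ac over less than 10% of the SOX9 peak.

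SOX9 peaks of this kind were weak and narrow for their list. The score that the authors deposited with each peak has no stated scale, and it ran from 50.1 to 349 over the 587 sites. Its median was 62.5 (quartiles 54.3 and 78.6), against 90.3 over all SOX9 peaks, and the median site stood at percentile 26.9 of the list. The scores lay between those of 2 other kinds of SOX9-only peak. The 1773 acetylated sites, which carry H3K27ac and H3K4me1 and lack H3K4me3, had a median of 73.3, and the 1630 unmarked sites, which carry none of the 4 marks, had a median of 55.5. The 401 sites that SOX6 shared, otherwise chosen by the same marks, had a median of 81.0.

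By quintile of the SOX9 list, the members numbered 206, 206, 114, 51 and 10 from the lowest to the highest. As a share of each quintile this is 6.97%, 6.97%, 3.86%, 1.73% and 0.338%. A score below 55 was held by 162 members (27.6%), a score over 100 by 89 (15.2%) and a score over 200 by 17. For unmarked sites 47.2% were below 55 and 1.90% over 100, and for acetylated sites 17.1% and 28.2%. The median width was 392 bp for members (quartiles 299.5 and 502.5 bp), 269.5 bp for unmarked sites, 439 bp for sites that SOX6 shared, 455 bp for acetylated sites and 538 bp for all SOX9 peaks. Acetylated sites were thus wider than shared sites at the median, while their median score was lower. Score and width are both measures of the same SOX9 peak, and across the 587 members their rank correlation was 0.238.

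**Figure D1:**
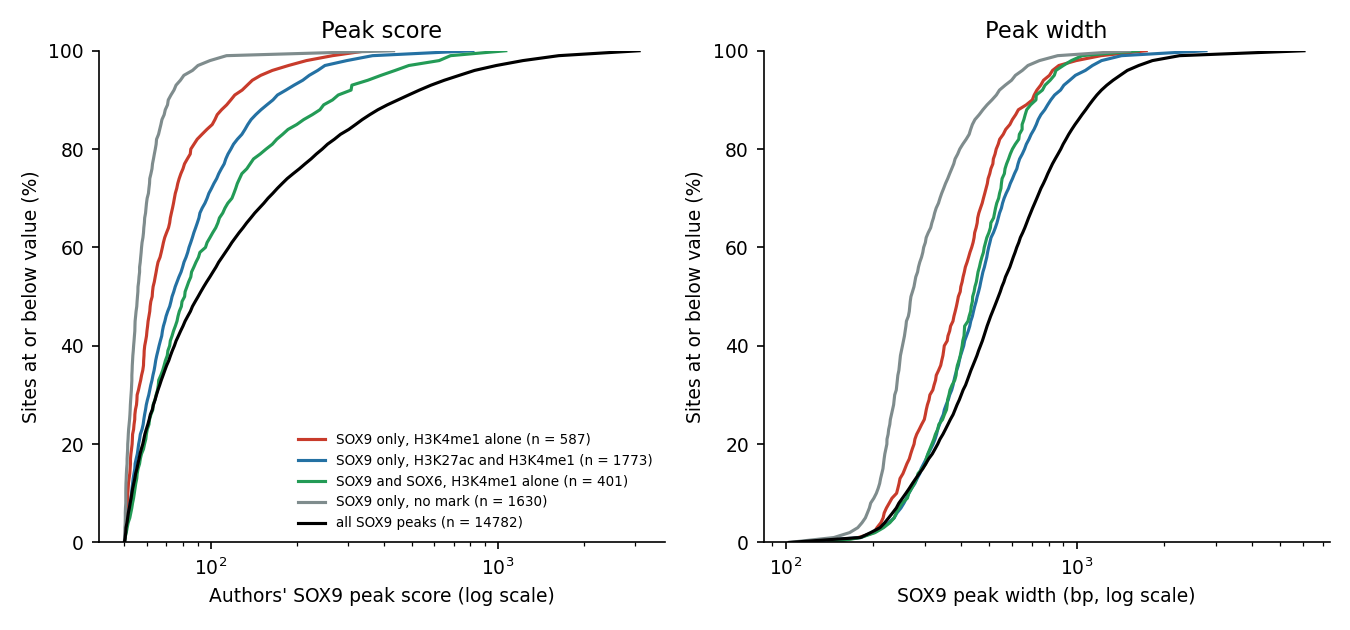
Cumulative share of SOX9 peaks (vertical axis, percent) at or below each score the authors deposited (left, log axis) and each width in bp (right, log axis), for the 587 SOX9-only sites with H3K4me1 alone, 3 other classes and all SOX9 peaks. The members' curve lies between those of unmarked and acetylated SOX9-only peaks, with median scores of 62.5, 55.5 and 73.3.

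A small number of members had scores well above the rest. The highest, 349, was that of a 496 bp peak on chromosome 8 from 74992896 to 74993391. It stood at percentile 86.6 of the SOX9 list and lay wholly inside an H3K4me1 peak of 1825 bp at percentile 86.1 of the H3K4me1 list. Its nearest H3K27ac peak was 11957 bp away, its nearest H3K4me3 peak 11775 bp and its nearest SOX6 peak 64.9 kb.

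Chromosome 6 held 4 of the 10 highest-scoring members. The peak from 137800684 to 137801401 had a score of 299 and no SOX6, H3K27ac or H3K4me3 peak within 91.4 kb. The peak from 131653725 to 131654227 scored 290 and was the single one of the 10 close to SOX6, with a SOX6 peak 769 bp and another SOX9 peak 1063 bp away, while H3K27ac lay 68.2 kb off. The peaks from 60910345 to 60910760 and from 47251385 to 47251751 scored 259 and 246. The latter sat in an H3K4me1 peak of 628 bp at percentile 15.8 of its list, so a high SOX9 score did not require a high H3K4me1 score.

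The other members of the 10 lay on chromosomes 2, 3, 5 and 17. The peak on chromosome 2 from 246303595 to 246304104 scored 296, with H3K27ac 61.2 kb and SOX6 269 kb away. On chromosome 5 the peak from 156608816 to 156609308 scored 282 and extended past its H3K4me1 peak of 581 bp, with 391 of 493 bp covered. The peaks on chromosome 17 (22883822 to 22884526) and chromosome 3 (111847325 to 111848023, and 180772335 to 180773134) scored 273, 264 and 261. Each of these 3 had H3K27ac between 13.4 and 15.4 kb away. Over all 10, the nearest H3K27ac peak was at least 9309 bp away. None had an H3K9me3 peak at the site. Since the share was 3.41% over all members and 3.31% over all SOX9 peaks, this does not set them apart.

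The SOX9 centres of members lay more often near the middle of their H3K4me1 peaks than near the edges. The SOX9 centre was inside an H3K4me1 peak at 553 of 587 sites (94.2%, 92.0% to 95.8%), beside 87.2% of all SOX9 peaks that overlap H3K4me1. The share was higher in both most similar classes, at 97.6% of acetylated sites (members minus acetylated -3.42 percentage points, -5.70 to -1.61) and 97.8% of sites that SOX6 shared (-3.55, -5.98 to -1.0). When each H3K4me1 peak is cut into 5 equal parts by distance from its middle, 36.5% of these centres fell in the innermost part and 5.42% in the part along the edges. For acetylated sites the shares were 35.2% and 4.85%, and for sites shared with SOX6 39.8% and 3.57%. The SOX9 peak lay wholly inside H3K4me1 at 468 members (79.7%), against 91.1% of acetylated sites. The H3K4me1 peaks were wider at acetylated sites, with medians of 1865 against 1039 bp, and these shares were not adjusted for width. At 5 members the SOX9 peak spanned the whole H3K4me1 peak.

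**Figure D2:**
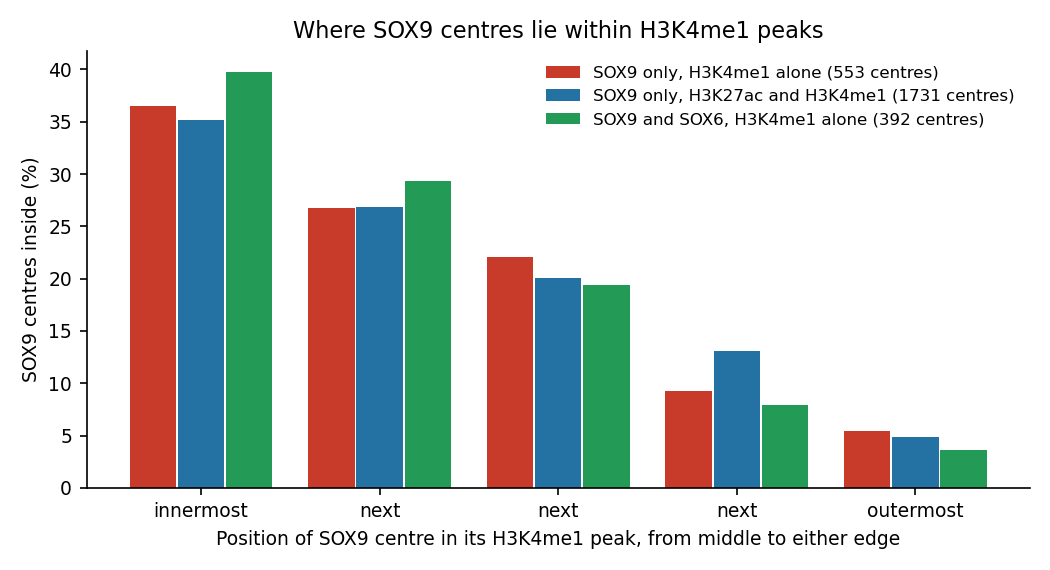
Share of SOX9 centres (vertical axis, percent of the centres inside an H3K4me1 peak) in 5 parts of equal total length, from the middle of the H3K4me1 peak (left) to both edges (right), for members, acetylated sites and sites shared with SOX6. The innermost bar is the highest and the outermost the lowest in each of the 3 classes, from 36.5% to 5.42% for members.

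The 587 sites lay in 586 H3K4me1 peaks, of which 5 held a pair of members, and 4 members touched a pair of H3K4me1 peaks. These 586 host peaks had a median width of 1039 bp (95% interval of the median 981 to 1117 bp), against 945 bp over all H3K4me1 peaks, and a median score of 176, at percentile 54.3 of the H3K4me1 list. The hosts of acetylated sites were 1865 bp wide at the median and stood at percentile 85.8. The 40343 H3K4me1 peaks that met no SOX peak, H3K27ac or H3K4me3 were 741 bp wide at the median and stood at percentile 31.4. Members thus lay in H3K4me1 peaks that ranked above unbound H3K4me1-only peaks and below those at acetylated sites. A wider peak offers more length to be met, which bears on the widths, and the rates per Mb below take length into account.

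Bound peaks were a small part of H3K4me1-only chromatin. Of 40869 H3K4me1 peaks without SOX6, H3K27ac or H3K4me3, 526 held a SOX9 peak (1.29%, 1.18% to 1.40%). The share was 0.587% in the lowest quintile of H3K4me1 score and 2.64% in the highest. Per Mb of H3K4me1-covered sequence the bound peaks numbered 9.97 in the lowest and 17.0 in the highest quintile of score, so the rise was smaller per length than per peak. Quintiles of width gave 10.9 per Mb in the narrowest and 15.2 in the widest. Within the members the SOX9 score hardly followed the H3K4me1 score, with a rank correlation of 0.0692 across 587 sites, and it was 0.0307 across the 1773 acetylated sites.

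Most host peaks met no SOX6, H3K27ac or H3K4me3 peak. H3K27ac met 51 of the 586 host peaks outside the SOX9 interval (8.70%), SOX6 met 21 (3.58%) and H3K4me3 met 12 (2.05%). Over all H3K4me1 peaks these shares were 51.0%, 14.8% and 26.4%. Each host was chosen through a SOX9 peak that overlaps none of these lists, so its lower shares are in part set by the choice. Hosts of sites that SOX6 shared, chosen by the same marks, met H3K27ac at 8.46% and H3K4me3 at 2.24%, close to the values of members' hosts. H3K9me3 met 23 of the members' hosts (3.92%), against 5.23% of all H3K4me1 peaks. In all 63 hosts (10.8%) met at least 1 of SOX6, H3K27ac and H3K4me3, and 523 met none. At the 63 members whose host met another list, the host was longer, with a median of 1794 bp, and H3K27ac lay a median of 289 bp from the SOX9 peak. At the other 524 members the medians were 981.5 bp and 17132 bp. The median SOX9 score was 61.8 in the first and 62.5 in the second group. A SOX6-only site of the mirror set lay in 6 of the host peaks, and 8 members had such a site within 1 kb.

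By the choice of sites no H3K27ac peak overlapped a member, and the gaps beyond that are a description. The gap from a member to its nearest H3K27ac peak, measured between edges, ran from 4 to 1899217 bp with a median of 13.2 kb (95% interval 10279 to 16899 bp). H3K27ac lay within 1 kb of 72 members (12.3%), within 5 kb of 187 (31.9%) and within 50 kb of 449 (76.5%). Within 1 kb the share was 3.19% for unmarked sites and 12.2% for sites that SOX6 shared. Within 50 kb these classes had 56.8% and 73.1%. Of the 2925 SOX9 peaks without H3K27ac, 20.7% had it within 5 kb, a set that includes the members. Unmarked SOX9-only peaks were farther off, with a median gap of 36099.5 bp and 14.0% within 5 kb, 17.9 percentage points below members (13.8 to 22.1). Sites that SOX6 shared had a median of 16620 bp and 23.9% within 5 kb, 7.92 points below members (2.20 to 13.4). The median gap of members was 27.7 kb for SOX9 peaks above the median score.

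H3K27ac was more often within 5 kb of members with low SOX9 scores. H3K27ac was within 5 kb of 36.4% of members in the lowest quintile of SOX9 score (30.1% to 43.2%) and 36.9% in the second. In the next quintiles the shares were 21.9% (15.3% to 30.4%) and 21.6% (11 of 51 members), and in the highest 0 of 10 members had it, which allows up to 27.8% by the Wilson interval. Unmarked sites had 13.3%, 15.8% and 13.3% in the first 3 quintiles. Sites that SOX6 shared had 25.3%, 26%, 18.6%, 27.3% and 23.4% from the lowest to the highest, below members in the first 3 quintiles and above them in the last 2. The median gap of members did not rise evenly, at 9997.5, 9586.5, 18704, 27668 and 18306 bp from the lowest quintile to the highest. The 138 members more than 50 kb from H3K27ac had a median score of 68.3 (64.0 to 73.7). The 262 between 5 and 50 kb had 62.6 (59.9 to 66.5), and the 187 within 5 kb had 59.9 (58.5 to 61.9). Across all members the rank correlation of score and gap was 0.143.

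H3K27ac peaks within 1 kb of members ranked low in their list. By the choice of sites they stop short of the SOX9 peak, which keeps out wide peaks that reach it. Other SOX9 classes were not compared. For the 72 members with H3K27ac within 1 kb, the nearest H3K27ac peak stood at a median percentile of 30.4 and was 758 bp wide at the median, against 1212 bp in the whole list. Over all members the nearest H3K27ac peak stood at percentile 49.5. For the 28 members with SOX6 within 1 kb, the nearest SOX6 peak stood at a median percentile of 40.1. For the 20 with H3K4me3 within 1 kb, the nearest H3K4me3 peak stood at a median percentile of 78.4. The upper quartile was the same value, for these 20 and over all members, so it is a percentile shared by tied scores. The lower quartile of the 20 was 27.8, and 40% of them were below the median of the H3K4me3 list, against 49.7% of all members. The 78.4 therefore does not show that H3K4me3 peaks near members rank high.

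SOX6 and H3K4me3 peaks, which are fewer than H3K27ac peaks in these lists, lay farther off. The nearest SOX6 peak was at a median of 33.7 kb (29470 to 39944 bp), and 28 members (4.77%) had it within 1 kb and 85 (14.5%) within 5 kb, against 22.5% within 5 kb over all 6453 SOX9 peaks without SOX6. The nearest H3K4me3 peak was at 31.9 kb, with 82 members (14.0%) within 5 kb, against 15.7% of the 8906 SOX9 peaks without H3K4me3. Unmarked sites had SOX6 within 5 kb at 5.46% and H3K4me3 at 9.33%, and acetylated sites had SOX6 within 5 kb at 30.0%. Of the 3 excluded lists, H3K27ac was the nearest for 340 members (57.9%), H3K4me3 for 162 (27.6%) and SOX6 for 85 (14.5%). The lists hold 50834, 23116 and 19355 peaks, so this order is also that of list size.

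**Figure D3:**
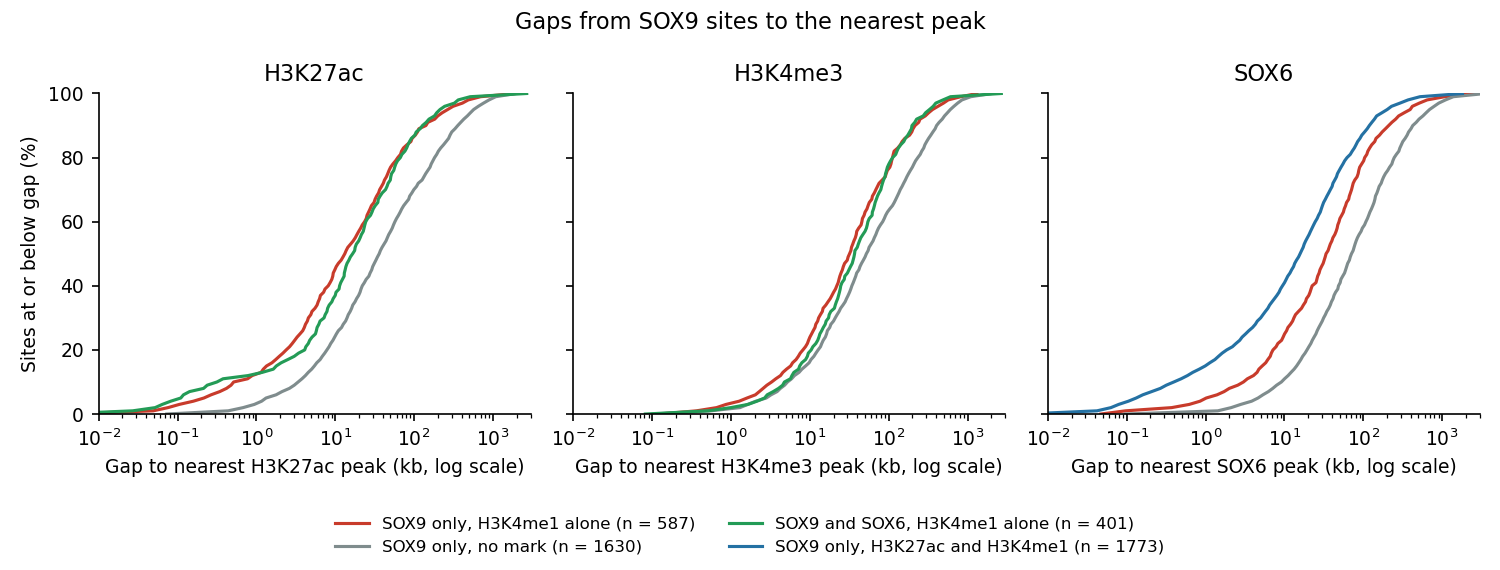
Cumulative share of sites (vertical axis, percent) by gap in kb (log axis) to the nearest H3K27ac, H3K4me3 and SOX6 peak, for the 587 members, 1630 unmarked sites and, for comparison, sites shared with SOX6 (left and middle) or acetylated sites (right). Members' median gaps are 13.2, 31.9 and 33.7 kb, each below that of unmarked sites.

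Both near and far members were present. A SOX6, H3K27ac or H3K4me3 peak lay within 5 kb of 214 members (36.5%), and none lay within 50 kb of 97 (16.5%). The member farthest from all 3 lists was on chromosome 5 from 100569293 to 100569610, with the nearest such peak 809 kb away. Chromosome 14 held a member 609 kb away (67480067 to 67480298), and chromosome 11 one 605 kb away (44123438 to 44123806). These 3 had scores of 73.7, 54.4 and 72.3 and lay in H3K4me1 peaks of 539, 561 and 607 bp, at percentiles 15.5, 6.19 and 17.4 of the H3K4me1 list.

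At the other end, H3K27ac was 4 bp from the member on chromosome 7 from 42059450 to 42059976 and 5 bp from a member on chromosome 1 (178920745 to 178921088) and from another on chromosome 13 (48833659 to 48833862). The first also had H3K4me3 at 123 bp and SOX6 at 891 bp, and H3K9me3 covered all of its 527 bp. It scored 76.3. The other 2 scored 52.4 and 61.5 and had no H3K9me3 peak at the site.

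The marks were also followed with distance from the SOX9 centre. H3K4me1 covered 92.9% of positions within 250 bp of the centre of members, 28.9% between 750 and 1000 bp and 12.8% between 1500 and 2000 bp. It then stayed near 10%, at 10.8% between 4 and 5 kb and 10.03% between 10 and 15 kb. Around acetylated sites it reached 34.1% between 1500 and 2000 bp and 15.8% between 10 and 15 kb, and around unmarked sites 3.19% and 5.24%. H3K27ac covered 4.37% of positions between 1500 and 2000 bp of members and 6.27% between 10 and 15 kb, against 32.7% and 13.1% for acetylated and 2.11% and 3.39% for unmarked sites. For comparison, H3K4me1 peaks covered 4.0% and H3K27ac peaks 2.84% of the 2902 Mb up to the last peak of each chromosome. The surroundings of members were therefore above this level for both marks, at distances the rule did not use. Between 10 and 15 kb this also held for unmarked sites and for sites that SOX6 shared (H3K4me1 7.47%, H3K27ac 4.15%), so it was not particular to members. In the members above the median SOX9 score, H3K27ac covered 2.39% of positions between 5 and 20 kb. The interval of this value over 105 sites, 1.28% to 3.49%, includes the 2.84% level. All members had 6.07% (5.23% to 6.92%).

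**Figure D4:**
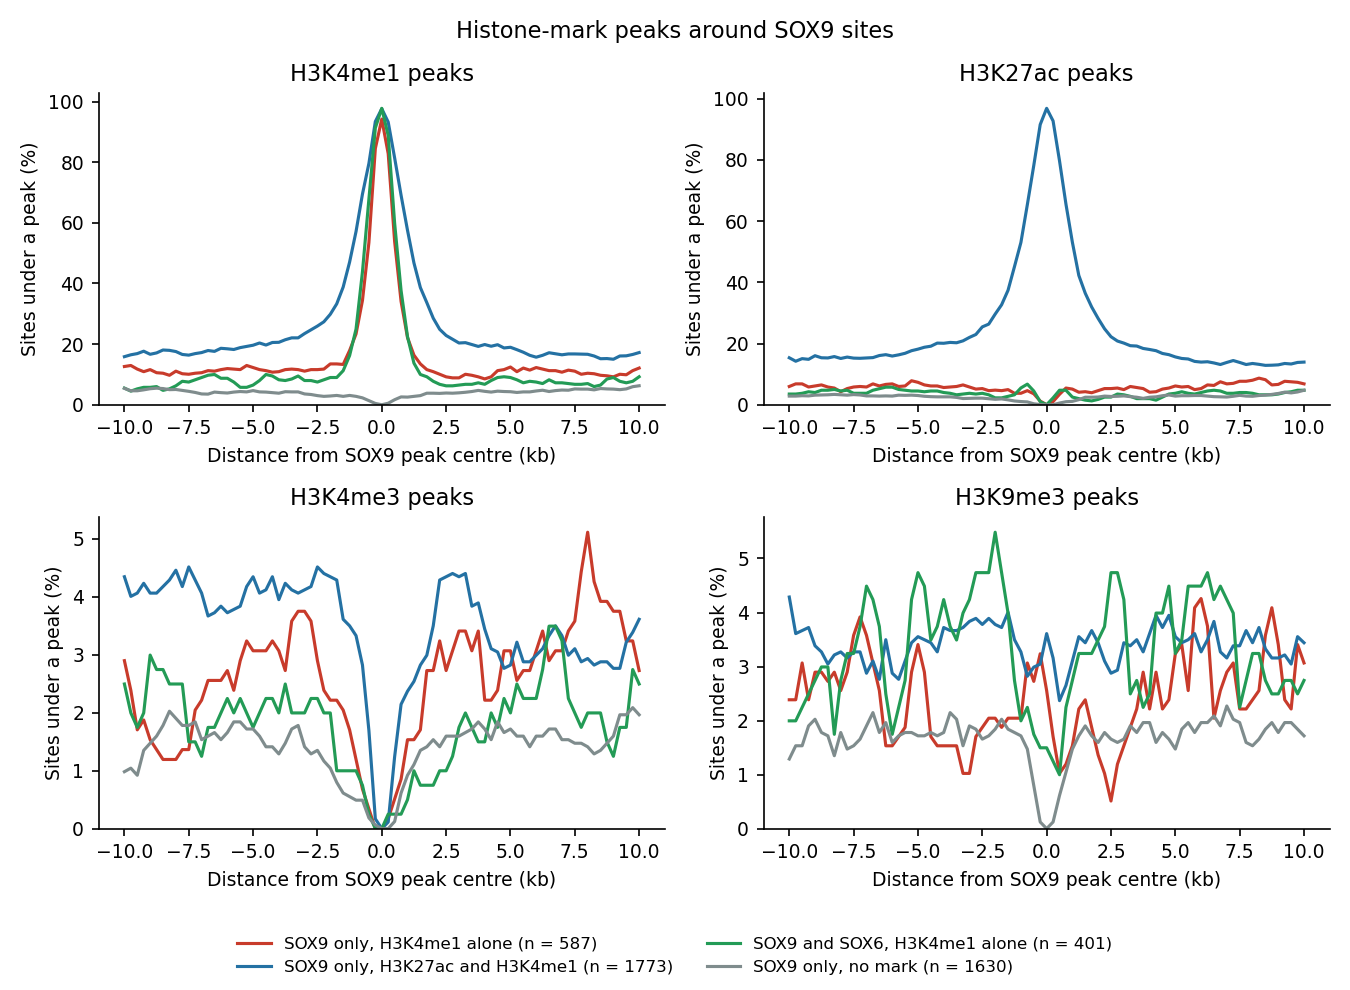
Share of sites (vertical axis, percent) with a peak of H3K4me1, H3K27ac, H3K4me3 or H3K9me3 at each distance in kb from the SOX9 centre, for members and 3 other SOX9 classes. The values at the centre are set by the choice of sites, except for H3K9me3 in members, acetylated sites and sites shared with SOX6. H3K4me1 around members falls to near 10% beyond 2 kb and lies between the acetylated and unmarked classes.

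H3K9me3, which the choice of sites did not use, was present at 20 of 587 members (3.41%, 2.22% to 5.20%). Over all SOX9 peaks the share was 3.31%, so members did not stand apart from the list, with a difference from the other SOX9 peaks of 0.0961 percentage points (-1.13 to 1.91). The share was 4.46% for acetylated sites and 2.24% for sites that SOX6 shared, and the intervals of both differences from members include 0. By quintile of SOX9 score, members had 3 of 206, 10 of 206, 6 of 114, 1 of 51 and 0 of 10. In the lowest quintile this is 1.46% (0.496% to 4.19%), against 4.14% (3.46% to 4.95%) of the other SOX9 peaks there. The share fell to 1.53% among members in H3K4me1 peaks above the median score.

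Nearby, H3K9me3 was less frequent than around other SOX9 peaks. It lay within 5 kb of 110 members (18.7%, 15.8% to 22.1%), against 25.3% of all SOX9 peaks, and the difference from the other SOX9 peaks was -6.88 points (-9.92 to -3.45). Acetylated sites had 24.2%, sites that SOX6 shared 24.9% and unmarked sites, which have none at the peak by definition, 15.2%.

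The 20 members with H3K9me3 had a median SOX9 score of 70.8 and lay in H3K4me1 peaks with a median width of 716 bp at a median percentile of 25.8. The longest stretches of H3K9me3 under a member were 834 bp on chromosome 1 (155022703 to 155023536) and 714 bp on chromosome 16 (83020101 to 83020814), in both cases the whole SOX9 peak. On chromosome 19 from 31822561 to 31823603 it covered 676 of 1043 bp. These 3 members scored 72.1, 93.2 and 60.0. A peak of an active mark and one of H3K9me3 at the same bp can come from different cells or different alleles, which these lists cannot tell apart.

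Members were mostly solitary. The nearest other SOX9 peak of any kind was at a median of 43820 bp (36167 to 47729 bp), and 77 members (13.1%, 10.6% to 16.1%) had one within 5 kb, against 26.6% of all SOX9 peaks. Acetylated sites had 29.6%, which put members 16.4 percentage points lower (difference -16.4, -19.7 to -12.8), and unmarked sites had 4.54%, 8.58 points below members (5.84 to 11.7). Sites that SOX6 shared had 9.48%, and the interval of that difference, -0.465 to 7.52 points, includes 0. The share was 8.57% for SOX9 peaks above the median score.

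Some members lay close to another member. Of the 587, 567 stood alone and 20 formed 10 pairs, with gaps of 10 to 11424 bp inside a pair, while members of different groups were at least 30503 bp apart. Other SOX9 classes were not grouped in this way. Whether members pair less often than other SOX9 peaks, or than a set of this size would, was therefore not tested. The first 3 pairs by position lay on chromosome 1 between 287113572 and 287114317 (scores 54.2 and 162), on chromosome 2 between 43381519 and 43392370 (89.4 and 117) and on chromosome 4 between 32475836 and 32477010 (54.4 and 119). The pairs on chromosomes 1 and 4 each lay in 1 H3K4me1 peak. The nearest H3K27ac peak to any of these 6 members was 34558 bp away, and a SOX6 peak and a further SOX9 peak lay within the span of the pair on chromosome 4.

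All 21 chromosomes held members. Chromosome 4 had the most, 78 of its 1448 SOX9 peaks (5.39%, 4.34% to 6.67%), and X the fewest, 2 of 167 (1.20%, 0.329% to 4.26%). Chromosome 20 had the highest share, 12 of 198 (6.06%), with an interval of 3.50% to 10.3% that includes the share over all chromosomes. Unmarked sites made up 15.2% of the SOX9 peaks of chromosome 4, and the share was higher on chromosomes 11 (15.7%), 13 (15.6%) and X (15.6%). Members on chromosome 4 had a median score of 60.3 and a median width of 456.5 bp, against 62.6 and 385 bp on the other chromosomes.

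Input depth varied between chromosomes and moved with the density of SOX9 peaks. Input reads without a mismatch per Mb, relative to the median chromosome and averaged over the 4 inputs, were 1.21 on chromosome 4, 0.712 on chromosome 20, 0.595 on X and 2.05 on chromosome 16. Over the 20 autosomes the rank correlation with this value was 0.853 for SOX9 peaks per Mb, 0.555 for members per Mb and -0.186 for the share of SOX9 peaks that are members. The last was -0.574 for SOX9 peaks above the median score. With all aligned reads in place of those without a mismatch the 3 values were 0.764, 0.398 and -0.247. These describe 20 chromosomes of the same libraries. The part of input depth in the number of members per chromosome was not tested.

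**Figure D5:**
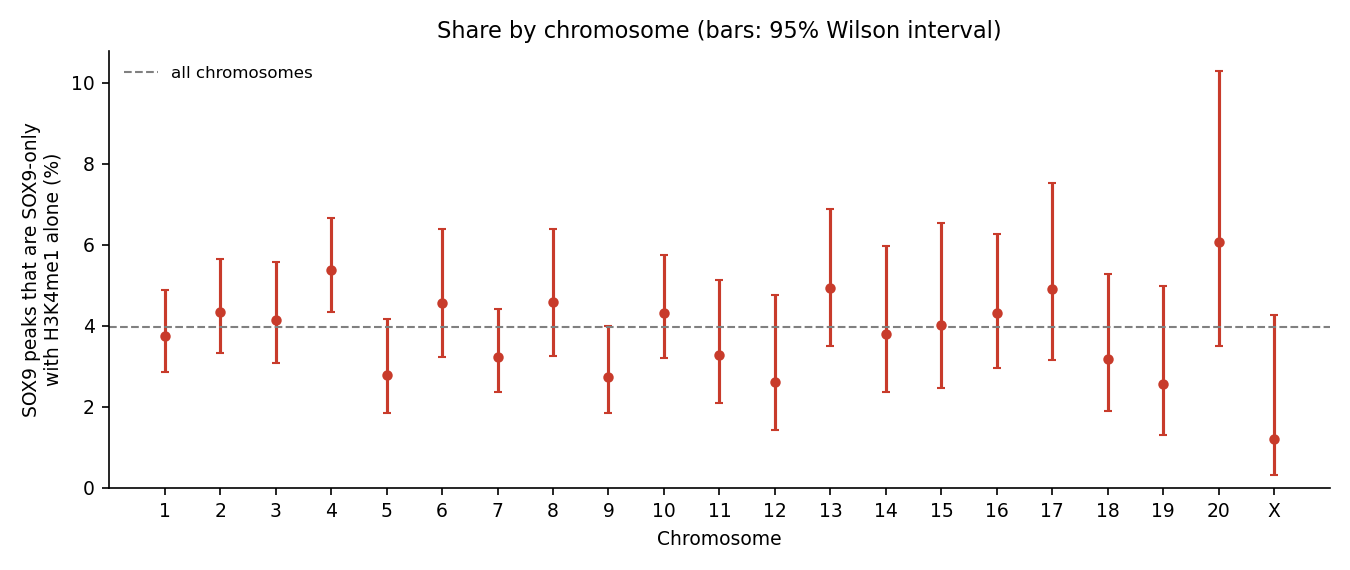
Share of SOX9 peaks on each chromosome (horizontal axis) that are SOX9-only with H3K4me1 alone (vertical axis, percent; bars are 95% Wilson intervals), with the share over all chromosomes, 3.97%, as a dashed line. Chromosome 4, at 5.39%, lies above the line by its interval, and the intervals of all other chromosomes include it.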

How the data were processed

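Peaks were deposited by the authors as 1 list per immunoprecipitated library, with a score per peak. The peak names carry the name of the caller MACS, and the submitters' processing notes name CASAVA 1.8 and build rn5. The sources used here do not give the aligner, the caller's settings or the meaning of the score, which was therefore used within each list only. The inputs are raw read counts per chromosome, per the file headers, with 19681958 to 70584605 aligned reads, and no depth of the immunoprecipitations was used. Positions were read as 0-based half-open and are printed 1-based. Overlap meant 1 bp or more, and gaps run between edges. Shares carry Wilson intervals, differences of shares Newcombe intervals and medians binomial intervals, all at 95%. The 95% interval of H3K27ac coverage came from its standard error over sites. That of the rank correlation came from Fisher's transformation over chromosomes. No p-value was computed, since 1 library per antibody gives no replicates. Interval code was tested on simulated data, and the members matched those of bedtools 2.31.1. Python 3.11.15 and SciPy 1.17.1 were used.

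The members and lists were chosen with earlier results of these data known. Named sites are the 10 highest-scoring members, the 3 farthest from and the 3 nearest to an excluded list, 3 on each side of the overlap rule, 3 with most H3K9me3 and the first 3 groups. The 5 kb distance for the next SOX9 peak, gaps by score quintile, subsets of members and H3K4me1 quintiles were added after the data were seen. A genome or annotation of rn5 was not used here, so no site was given a gene or sequence.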

Additional observations from a re-analysis of the deposited data

How the results depend on the processing

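Under the other overlap rules, score thresholds, distances and read counts, 54 values stayed inside the interval of the reported value (for the number of members, within 1.5 times) and 31 moved. The rank correlation of the members' share with input depth, -0.186 (interval -0.581 to 0.279 over 20 chromosomes), was -0.574 with SOX9 peaks above the median score and -0.364 with only higher-scoring peaks excluding. That interval treats chromosomes as independent, although they share the same libraries. It is also wide, so a value that stayed inside it says little. Counting overlap by the SOX9 centre gave H3K4me1 hosts with a median width of 1133 bp and a gap to H3K27ac of 9497 bp, and 100% of centres inside by construction. Requiring 0.5 of the SOX9 peak gave 1124 bp, 9871 bp and 99.7%. With SOX9 peaks above the median score there were 105 members, with a median score of 123, a width of 476 bp, hosts of 1169 bp, 97.1% of centres inside, 2.39% of positions under H3K27ac, 8.57% with a SOX9 peak within 5 kb and gaps of 27668 bp to H3K27ac, 45601 bp to SOX6 and 39266 bp to H3K4me3. With H3K4me1 peaks above the median score there were 326, with a width of 419 bp, hosts of 1401 bp, 98.8% of centres inside, a gap to H3K27ac of 9995.5 bp and H3K9me3 at 1.53%. With only higher-scoring SOX6, H3K27ac and H3K4me3 peaks excluding there were 1608 members. They had a median score of 68.1, a width of 422 bp and hosts of 1197 bp. Their median gap to H3K27ac was 0 bp (0 to 213 bp), in a setting that lets lower-scoring H3K27ac peaks overlap a site. The gaps were 15920 bp to SOX6 and 26418 bp to H3K4me3. Excluding peaks within 1 kb gave a gap to H3K27ac of 18904.5 bp and 9.68% with a SOX9 peak within 5 kb. Under the centre rule 553 of the 587 members were kept. Narrowing SOX9 peaks to 400 bp moved none of the values recomputed. All aligned input reads changed that correlation to -0.247, and those of members and SOX9 peaks per Mb from 0.555 to 0.398 and from 0.853 to 0.764. No paired analysis was possible because each antibody has 1 library. Depth of the immunoprecipitations is unknown, so a missing peak does not show that a mark is absent.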
